A study of Rattus norvegicus with 27 samples.

Results

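Immediate early genes are switched on within minutes of neuronal firing, with no need for new protein synthesis, and the 10 described here are Fos, Junb, Jund, Egr1, Egr2, Egr4, Arc, Nr4a1, Nr4a2 and Nr4a3. They were taken by name: every probe whose gene name on the array, with case ignored and the endings _predicted and _mapped dropped, was one of these symbols. That gave 13 probes for the 10 genes, out of 41012 probes and 18365 named genes on the array, with 2 probes for Jund, 3 for Nr4a3 and 1 for each of the others.

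Hippocampus, prefrontal cortex and striatum were taken from male rats aged 10 weeks in 3 groups of 9 animals, and RNA of 3 animals was combined into each pool, so that every region and group had 3 pools and 27 arrays were hybridised in all. Wistar rats served as controls, with an average blood sugar of 7.64 mmol/l. Goto-Kakizaki (GK) rats, an inbred Wistar-derived line with spontaneous diabetes that models type 2, had 13.9 mmol/l. Streptozotocin (STZ) rats, a model of type 1 diabetes, were Wistar rats given a single intravenous dose of 65 mg/kg of this beta cell toxin at 6 weeks of age, 4 weeks before sampling, and had 26.34 mmol/l. GK rats differ from the controls in strain as well as in diabetes, and these cannot be told apart here. STZ rats entered the study only if their plasma glucose had risen. All animals ate normal chow. The methods describe anaesthesia and decapitation for all groups in one passage and cervical dislocation for the STZ rats in another. The 3 regions of a group came from the same animals, which the tests between regions did not take into account because the labels do not tie pools to animals across regions.

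Fos, Junb and Jund encode subunits of the AP-1 transcription factor, which binds DNA as a pair of basic leucine zipper proteins. Egr1, Egr2 and Egr4 encode zinc finger factors that bind GC-rich elements, and Nr4a1, Nr4a2 and Nr4a3 encode orphan nuclear receptors. Arc is the exception among them, since it encodes a postsynaptic protein that drives removal of AMPA receptors from the synapse and its RNA travels into dendrites. Calcium entry and cAMP raise transcription of most of these genes through CREB, which binds the cAMP response element, and through serum response factor, which binds the CArG box. In brain tissue their RNA level is widely used as a record of recent neuronal activity. Jund is known for being transcribed at rest and for responding less to stimulation than Fos or Junb.

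Because Jund and Nr4a3 gave different answers from different probes, the letters that these probes read are shown first, in lower case and with nothing in capitals. The probes are 60 bases long. The first Jund probe and the Nr4a3 probes are shown by their first 30 bases, and the second Jund probe whole, since it encodes part of the leucine zipper.
Jund A_42_P537443: agtccacattcctgttccgtaatccttggt
Jund A_43_P15517: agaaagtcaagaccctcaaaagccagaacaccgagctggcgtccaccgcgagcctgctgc
Nr4a3 A_44_P654444: gtcttccatagttatcacaactatgagagc
Nr4a3 A_43_P12619: tggccgttttgctaagactcaaactttgaa
Nr4a3 A_43_P11932: ttgggttctcctgcatttagatagctctac
The Jund probes share no run longer than 6 bases, and the Nr4a3 probes no run longer than 5 or 6, so that probes of the same name read different stretches. Both Jund probes carry the same transcript record, listed in RefSeq as Jund. The Nr4a3 probes each carry a different record, and only that of A_43_P12619 was found in RefSeq, as Nr4a3. For A_44_P654444 and A_43_P11932 the gene is known here by the array's name only. The Jund probes also differ in composition, with 43.3% G and C in the first and 60.0% in the second, while the Nr4a3 probes hold 35.0%, 41.7% and 35.0% in the order shown. Below, A_42_P537443 is called the lead probe of Jund and A_44_P654444 the lead probe of Nr4a3, because each had the highest mean signal among the probes of its gene.

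A promoter was listed in the RefSeq table (GRCr8) for 7 of the 10 genes: Junb, Jund, Egr1, Egr2, Egr4, Nr4a1 and Nr4a2. The 250 bases before the start are shown 5′ to 3′ on the gene's strand for 3 of them, from each of the transcription factor families, with the core letters of the cAMP response element marked. Capitals mark TGACG, or CGTCA, which is the same element on the other strand.
Nr4a1, chr7:134259888-134260137, plus strand: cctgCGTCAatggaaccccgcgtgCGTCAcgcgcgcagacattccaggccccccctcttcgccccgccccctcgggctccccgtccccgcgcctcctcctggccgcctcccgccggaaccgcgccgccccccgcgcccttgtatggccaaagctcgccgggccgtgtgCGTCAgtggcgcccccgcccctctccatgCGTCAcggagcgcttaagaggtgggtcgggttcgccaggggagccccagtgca
Egr4, chr4:119607818-119608067, minus strand: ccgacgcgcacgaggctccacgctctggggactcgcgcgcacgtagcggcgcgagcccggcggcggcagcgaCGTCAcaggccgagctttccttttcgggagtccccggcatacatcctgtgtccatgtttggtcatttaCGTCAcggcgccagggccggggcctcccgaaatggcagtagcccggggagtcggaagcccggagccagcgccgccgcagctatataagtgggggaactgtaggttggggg
Jund, chr16:18769772-18770021, minus strand: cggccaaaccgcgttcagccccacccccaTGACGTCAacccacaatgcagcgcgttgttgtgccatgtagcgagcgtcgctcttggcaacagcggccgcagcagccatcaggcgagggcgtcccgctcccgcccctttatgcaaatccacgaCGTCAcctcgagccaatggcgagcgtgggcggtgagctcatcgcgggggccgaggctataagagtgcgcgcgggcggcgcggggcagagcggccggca
TGACG on either strand was found in all 7 listed member promoters and in 18.2% of the 33469 promoters of the table. Nr4a1 held 4 matches, Jund 3 and Egr4 2. In Jund 2 of the matches overlap as the full palindrome TGACGTCA, which 1.59% of all promoters hold and no other listed member did. The same Jund window held GCGTGGGCG, the element read by Egr factors (0.478% of promoters), and the CArG box was found in Egr1 and Egr2 (1.497% of promoters). The AP-1 element TGACTCA was in none of the 7 windows and in 4.05% of promoters. The Nr4a1 window lies inside the gene, since RefSeq also has a start further upstream. These matches describe letters in a window and are not mapped binding sites.

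All 13 probes were well above background on all 27 arrays and none was saturated. Levels are on a log2 scale relative to the 75th percentile of processed signals on the same array, so that a level of 0 equals that percentile, and levels of different probes are not comparable. On each array 67.4% to 75.3% of all probes cleared the scanner software's background test. Spots that the scanner software marked as outliers were left out of the levels and tests, which touched the lead probe of Jund on 8 arrays and Egr4 on 3. They were kept in the marker sums and in the correlations between pools. A probe was called when its difference was at least 2-fold with an adjusted p under 0.05 in limma, and was said to pass the test when the adjusted p alone was met. Summed over its list, the signal of striatal projection neuron markers (9 of 12 names had a probe) was 194 to 241 times the 75th percentile in control striatum, against 4.53 to 5.37 in control hippocampus. In control prefrontal cortex the same sum was 18.5, 8.62 and 25.7, so that striatal RNA was uneven between those pools. Hippocampal markers (7 of 10 names) summed to 3.33 to 4.16 in control hippocampus and to 1.33 to 2.23 in the control pools of the other two regions. Cortical markers had a probe for 2 of 8 names, too few to check the cortical label well.

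In the control rats, most of these genes differed between hippocampus and the other two regions. As many as 7 of the 10, namely Fos, Junb, Egr1, Egr2, Egr4, Arc and Nr4a1, stood higher in prefrontal cortex than in hippocampus, and Nr4a2 and Nr4a3 stood lower. In all, 9 of the 13 probes were called between prefrontal cortex and hippocampus, 7 higher and 2 lower, where 5.15% of the 31506 probes tested were called. Between striatum and hippocampus 7 were called, 5 higher and 2 lower (8.93% of 31609 probes), and between striatum and prefrontal cortex 1 was called, lower (8.78% of 31770). The median difference of the 13 probes was 1.12 log2 units for prefrontal cortex minus hippocampus and 0.98 for striatum minus hippocampus, while over all probes tested it was 0.03 for each.

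**Figure D1:**
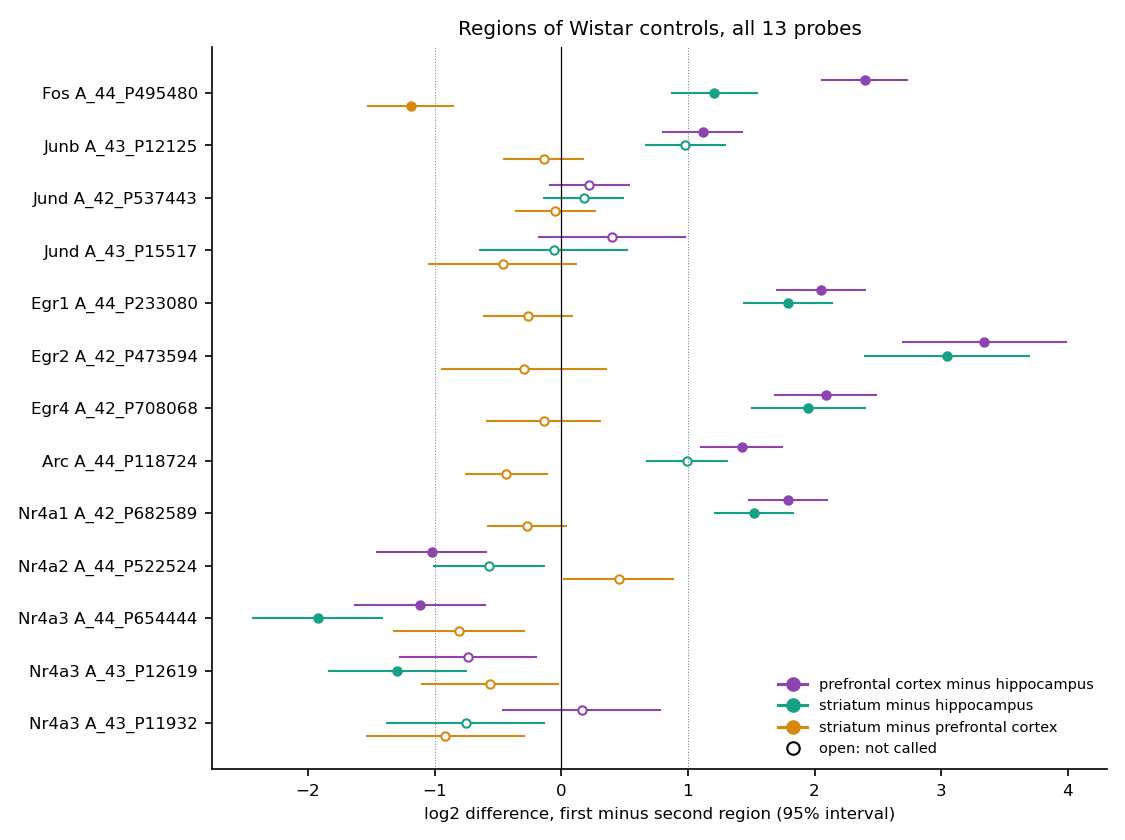
Difference in log2 level between 2 regions of the control rats for each of the 13 probes, with 95% confidence intervals from limma (n = 3 pools in each region). Filled symbols are probes that were called. Egr2 reaches 3.34 log2 units between prefrontal cortex and hippocampus, while Nr4a2 and the lead probe of Nr4a3 lie on the opposite side of 0.

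Egr2, a zinc finger factor also known for hindbrain patterning and myelination, had the widest range. Its log2 levels in the control pools were -1.63, -1.20 and -1.86 in hippocampus, 1.66, 2.11 and 1.56 in prefrontal cortex and 1.08, 2.19 and 1.18 in striatum. Hippocampus did not overlap with either of the other regions, which overlapped with each other. Prefrontal cortex was 10.1-fold above hippocampus (log2 difference 3.34, SE 0.31, adjusted p = 9.82e-08) and striatum 8.25-fold above it (3.04, SE 0.31, adjusted p = 1.57e-07).

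Fos lay apart in all 3 regions. Its log2 levels in controls were -1.16, -0.99 and -0.92 in hippocampus, 1.48, 1.22 and 1.42 in prefrontal cortex and 0.45, -0.18 and 0.28 in striatum. No pool of any region overlapped with another region. Prefrontal cortex was 5.27-fold above hippocampus (log2 difference 2.40, SE 0.16, adjusted p = 1.23e-09), and Fos was the probe called between striatum and prefrontal cortex, where striatum was 2.28-fold lower (-1.19, SE 0.16, adjusted p = 7.67e-06). On the slides that held a control pool of both regions, this last difference was -1.40 on slide 5 and -1.14 on slide 6, with 1 pool of each region on a slide.

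Egr1, which is widely used to map activity and is needed for lasting synaptic change, had control levels of 2.72, 2.74 and 2.42 in hippocampus, 4.67, 4.78 and 4.58 in prefrontal cortex and 4.10, 4.82 and 4.33 in striatum. The cortical and striatal pools overlapped and all were above the hippocampal ones, by 4.14-fold in cortex (adjusted p = 1.66e-08) and 3.45-fold in striatum (adjusted p = 4.11e-08). Egr4 gave differences of the same order, 2.09 log2 units for cortex minus hippocampus (adjusted p = 3.36e-07) and 1.95 for striatum minus hippocampus (adjusted p = 1.48e-06). Nr4a1 was 3.46-fold above hippocampus in cortex (adjusted p = 1.81e-08) and 2.87-fold in striatum (adjusted p = 6.94e-08).

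Arc had control levels of 3.97, 3.93 and 3.92 in hippocampus, 5.31, 5.51 and 5.28 in prefrontal cortex and 5.06, 5.05 and 4.68 in striatum. The 3 regions did not overlap, and Arc passed the test in each comparison: 2.69-fold higher in cortex than in hippocampus (adjusted p = 7.38e-07), 1.99-fold higher in striatum than in hippocampus (adjusted p = 3.8e-05) and 1.35-fold lower in striatum than in cortex (adjusted p = 0.0429, in a comparison where 24.9% of probes passed). The last of these no longer passed without any one of 4 of the 6 pools (adjusted p up to 0.2), and it was -0.45 on slide 5 and -0.60 on slide 6. Junb was 2.17-fold above hippocampus in cortex (adjusted p = 1.21e-05) and 1.97-fold in striatum (adjusted p = 3.26e-05). Both probes of Jund stood apart from this pattern: no region difference of either passed the test, and the largest was -0.46 (adjusted p = 0.257).

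The other Nr4a genes ran the opposite way. Nr4a2, a factor that midbrain dopamine neurons need for their identity, had control levels of 0.34, 0.78 and 0.58 in hippocampus, -0.20, -0.66 and -0.51 in cortex and -0.04, 0.54 and -0.52 in striatum. Every hippocampal pool was above every cortical pool, by 2.03-fold on average (log2 difference -1.02 for cortex minus hippocampus, adjusted p = 0.00127), and the striatal pools overlapped with both. The lead probe of Nr4a3 read 2.29, 2.54 and 2.14 in hippocampus, 1.24, 1.41 and 0.97 in cortex and 0.30, 0.74 and 0.17 in striatum. Here hippocampus was highest and striatum lowest without overlap, with striatum 3.79-fold below hippocampus (adjusted p = 3.47e-06). The second Nr4a3 probe, A_43_P12619, followed this order (-1.29 for striatum minus hippocampus, adjusted p = 0.000599), and the third, A_43_P11932, gave 0.16 for cortex minus hippocampus (adjusted p = 0.8) and -0.75 for striatum minus hippocampus (adjusted p = 0.0622).

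Control hippocampus shared no slide with control cortex or control striatum. No group had pools on both slides 1 to 3 and slides 4 to 7. Control hippocampus lay in the first of these sets, and control cortex and striatum in the second. A fit over all 9 groups with the slide as a block could therefore not correct the differences from hippocampus. Region and slide set cannot be told apart in them. In the GK and in the STZ rats the means of Fos, Egr1, Egr2, Egr4, Arc and Nr4a1 were also in the order cortex, striatum, hippocampus from high to low, and those of Nr4a2 in the order hippocampus, striatum, cortex. Junb kept the order of the controls in GK rats, whereas in STZ rats its striatal mean (0.10) was above its cortical mean (0.04), a gap within the spread of the pools. STZ hippocampus and STZ cortex both lay on slides 5, 6 and 7. Cortex minus hippocampus was there 1.90 for Fos, 1.00 for Junb, 1.57 for Egr1, 2.48 for Egr2 and 1.58 for Egr4. It was 1.19 for Arc, 1.29 for Nr4a1, -1.33 for Nr4a2 and -1.19 for the lead Nr4a3 probe. These STZ differences were not tested. Since these are whole tissue pieces, fewer expressing cells and less RNA per cell cannot be told apart in any of these levels.

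**Figure D2:**
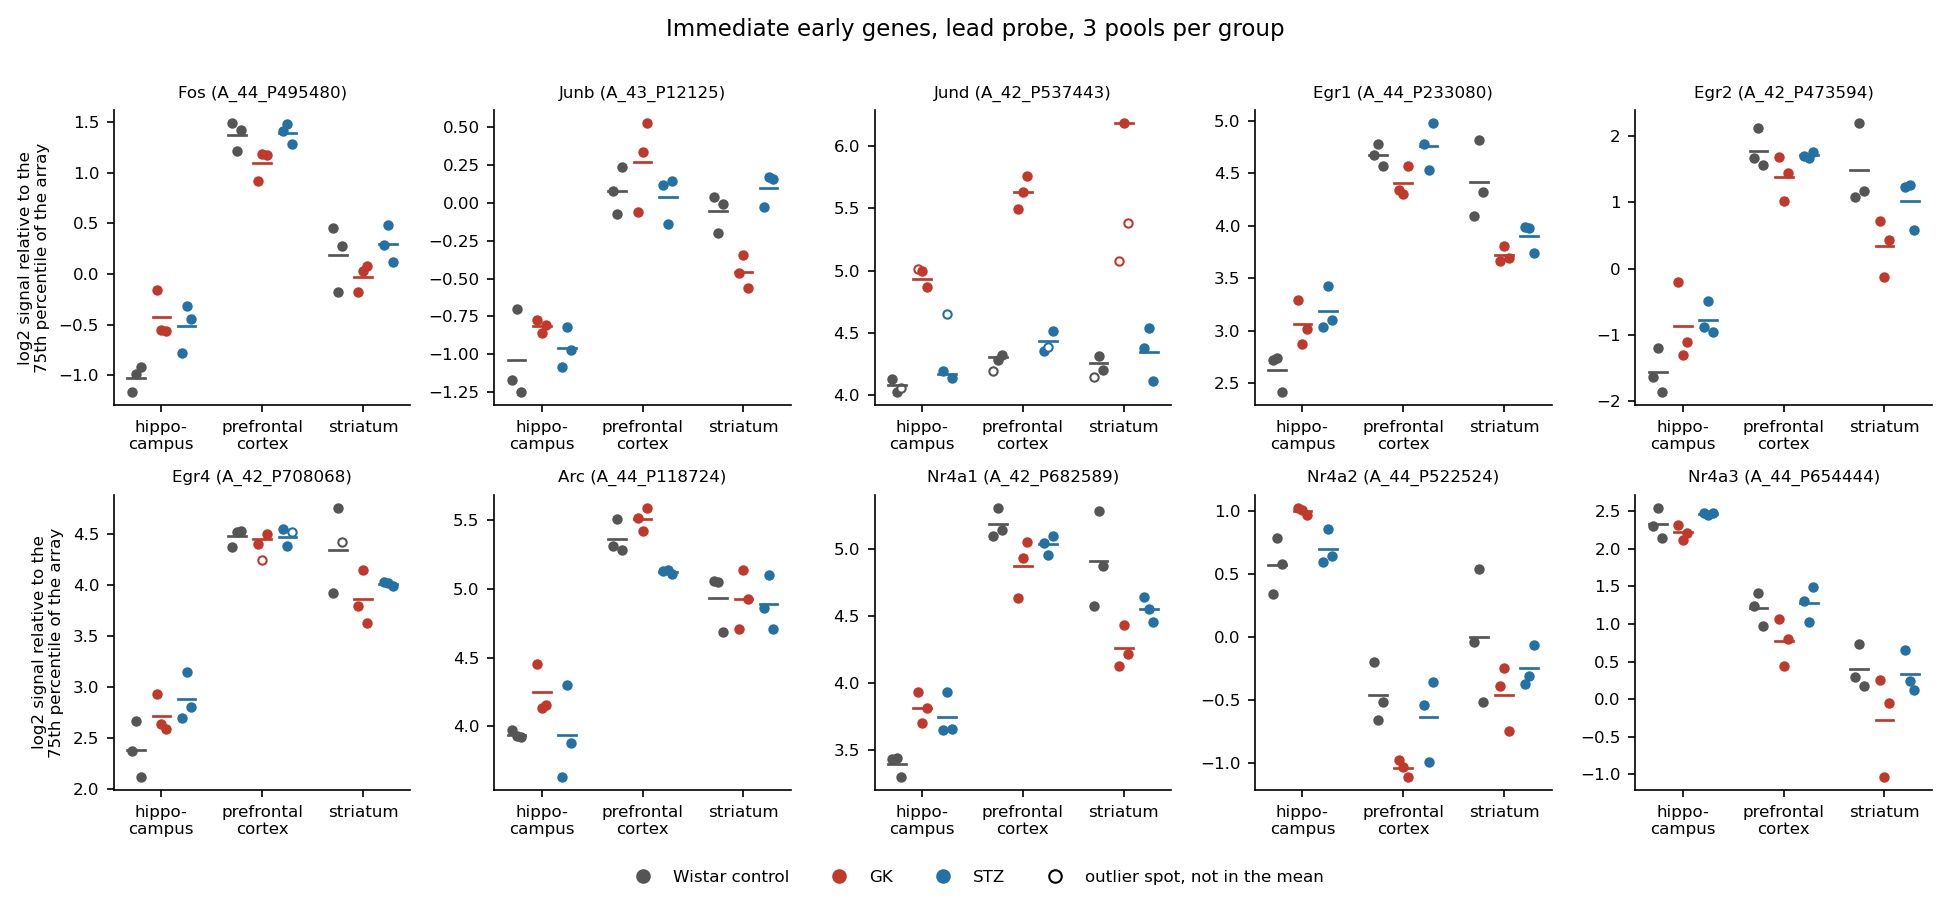
Log2 level of the lead probe of each of the 10 genes in every pool of the 9 groups, with the group mean as a line; open symbols are outlier spots that were not part of the mean. The control striatum pool 2 is the highest of its group in Egr1 (4.82), Egr2 (2.19), Egr4 (4.75) and Nr4a1 (5.28).

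In the hippocampus of GK rats most members stood above the controls by less than 2-fold. Fos and both Jund probes passed the test as higher and the third Nr4a3 probe as lower, so that 4 of 13 passed, where 5.12% of the 30678 probes tested did. Of these, 2 were called, A_43_P15517 of Jund as higher and A_43_P11932 of Nr4a3 as lower (1.93% of all probes tested were called). The difference was above 0 for 10 of the 13 probes, with a median of 0.42 log2 units against -0.05 over all probes. The GK and control pools did not overlap for 8 of the 13 probes, where 44.5% of all probes tested did not.

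Fos read -0.16, -0.55 and -0.56 in the GK pools of hippocampus against -1.16, -0.99 and -0.92 in the controls, without overlap (log2 difference 0.60, SE 0.16, 1.52-fold, adjusted p = 0.0304). The difference was 0.72 with the slide as a block (adjusted p = 0.0364), and 0.88 within slide 2, which held 1 GK and 2 control pools (adjusted p = 0.128). Fos no longer passed with normexp background correction (0.52, adjusted p = 0.152), with the replicate number as a block (adjusted p = 0.0919), or without any one of 5 of the 6 pools (adjusted p up to 0.187). The lead probe of Jund read 5.00 and 4.87 in the GK pools kept, against 4.13 and 4.03 in the controls kept (0.85, SE 0.15, adjusted p = 0.00425). The second Jund probe read 0.30, 0.28 and 0.25 against -1.39, -1.25 and -1.30, a gap many times the spread of the pools (1.59, SE 0.28, 3.01-fold, adjusted p = 0.000841). The lead probe did not pass with normexp or by the methods' t-test (adjusted p up to 0.105). The second did not pass within slide 2, with its 1 GK pool. JunD is known as the AP-1 subunit that restrains growth in several cell types.

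Egr1, Egr2, Egr4, Arc, Nr4a1 and Nr4a2 gave hippocampal differences of 0.44, 0.69, 0.33, 0.31, 0.42 and 0.43, none past the test (adjusted p from 0.117 to 0.463). GK pool 1 was the highest of the GK pools in Fos, Egr1, Egr2, Egr4, Arc and Nr4a1. That pool had a summed choroid plexus marker signal of 159, the others 21.3 and 110, and the controls 2.98, 3.26 and 126, over 9 of 9 marker names with a probe. Blood markers (2 of 5 names) summed to 2.01 to 2.96 in the GK pools and 1.44 to 1.58 in the controls, and oligodendrocyte markers (6 names with a probe) to 202 to 221 and 248 to 263. The part of any of these in these differences was not tested.

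In the prefrontal cortex of GK rats the probes of 2 genes were called and no other member passed. Jund was higher by both probes and Nr4a3 lower by A_43_P11932, so 3 of 13 were called, where 2.5% of the 30902 probes tested were. The same 3 were all that passed without the fold limit (8.59% of all probes). The remaining members were mostly slightly below the controls: the difference was under 0 for 9 of the 13 probes, with a median of -0.28 against -0.01 over all probes. Pools of the GK rats and the controls did not overlap for 8 of the 13 probes (26.4% of all probes tested).

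The lead probe of Jund read 5.49, 5.63 and 5.76 in the GK cortex against 4.28 and 4.33 in the controls kept (1.32, SE 0.14, 2.50-fold, adjusted p = 4.24e-05). The second probe read 0.81, 1.01 and 1.06 against -0.88, -0.99 and -0.87 (1.87, SE 0.28, 3.66-fold, adjusted p = 0.000112). In each probe the lowest GK pool was far above the highest control pool. A_43_P11932 of Nr4a3 read -2.05, -1.56 and -1.92 in GK cortex against 0.18, -0.04 and 0.27 in controls (-1.98, SE 0.30, 3.95-fold lower, adjusted p = 0.000131). GK cortex lay on slides 1 and 3 and control cortex on slides 5, 6 and 7, so that model and slide cannot be told apart here. The slide as a block could not correct these differences.

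Nr4a2 read -0.98, -1.03 and -1.11 in GK cortex and -0.20, -0.66 and -0.51 in controls and did not pass (-0.58, SE 0.21, adjusted p = 0.0909). Fos, Egr1 and Nr4a1 gave -0.28, -0.27 and -0.31, not past the test either (adjusted p = 0.343, 0.383 and 0.223). Arc and Egr4 differed by 0.14 (95% interval -0.18 to 0.46) and -0.03 (-0.48 to 0.42). In this region the striatal marker sum was 7.95 to 9.68 in GK pools against 18.5, 8.62 and 25.7 in controls, and 5 of its 9 genes were called lower. Among the 5 was Pde10a (-2.30), which was also called lower in GK hippocampus (-2.12) and striatum (-1.84). Oligodendrocyte markers summed to 94.8 to 114 in GK pools and 133 to 159 in controls, and astrocyte markers (5 names with a probe) to 75.9 to 87.6 and 89.2 to 100.1. Microglia markers (6 of 6 names) summed to 27.0 to 34.3 and 22.9 to 25.8, and blood markers to 2.55 to 4.68 and 1.84 to 2.54. The part of these in the differences was not tested.

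In the striatum of GK rats Jund was again higher by both probes, while Egr1, Egr2, Nr4a1 and the third Nr4a3 probe were lower. That made 6 of 13 probes past the test, where 13.8% of the 30603 probes tested passed. Called were the 2 Jund probes as higher and Egr2 and A_43_P11932 as lower (3.08% of all probes). The difference was under 0 for 11 of the 13 probes, every one except those of Jund, with a median of -0.48 against 0.01 over all probes. For 7 of the 13 probes the GK and control pools did not overlap (22.8% of all probes tested).

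The second Jund probe read 0.52, 1.46 and 0.67 in GK striatum against -0.89, -2.28 and -0.96 in controls (2.26, SE 0.28, 4.79-fold, adjusted p = 1.12e-05). Control pool 2 was far the lowest, and without it the difference was 1.81. The probe passed with any 1 pool left out (adjusted p up to 0.000117). It did not pass with only the groups compared in the fit or by the methods' t-test (adjusted p up to 0.527). For the lead probe only GK pool 2 (6.18) was not marked as an outlier, and the fit gave 1.93 over that single GK spot (SE 0.18, adjusted p = 2.04e-05). With the marked spots kept, at 5.08 and 5.38, it gave 1.33 (adjusted p = 7.34e-05). Slide 4 held the 3 GK pools and control pool 1, and within it the second probe gave 1.77 (adjusted p = 0.00106).

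Egr1 read 3.67, 3.81 and 3.70 in GK striatum against 4.10, 4.82 and 4.33 in controls, without overlap (-0.69, SE 0.17, 1.61-fold lower, adjusted p = 0.00841). Nr4a1 read 4.12, 4.43 and 4.21 against 4.58, 5.28 and 4.87, also without overlap (-0.65, SE 0.15, adjusted p = 0.00491). Egr2 read 0.72, -0.12 and 0.43 against 1.08, 2.19 and 1.18 (-1.14, SE 0.31, 2.20-fold lower, adjusted p = 0.0181). In all 3 genes the control pool 2 was the highest of the region. Without that pool the differences were -0.49, -0.47 and -0.79 (adjusted p = 0.0633, 0.0378 and 0.124), so that only Nr4a1 still passed. Egr2 also no longer passed without GK pool 2. Within slide 4 they were -0.37, -0.32 and -0.74 (adjusted p = 0.526, 0.499 and 0.52), and with the slide as a block none passed (adjusted p = 0.589, 0.603 and 0.337).

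A_43_P11932 of Nr4a3 read -1.89, -2.18 and -1.38 in GK striatum and -0.90, -0.89 and -0.54 in controls, without overlap (-1.04, SE 0.30, adjusted p = 0.024), and -1.10 without control pool 2 (adjusted p = 0.0495). It no longer passed with normexp (-0.98, adjusted p = 0.0655), with the slide as a block (-0.91, adjusted p = 0.441), within slide 4 (-0.91, adjusted p = 0.426), or without control pool 3, GK pool 1 or GK pool 2 (adjusted p up to 0.0992). Arc was close to the controls, with GK levels of 4.71, 5.14 and 4.93 and control levels of 5.06, 5.05 and 4.68 (-0.01, 95% interval -0.33 to 0.31). Fos gave -0.21 (adjusted p = 0.429) with overlapping pools. Striatal projection neuron markers summed to 153 to 193.8 in GK and 193.9 to 241 in control striatum, with a median difference of -0.19. Of that list only the phosphodiesterase gene Pde10a passed. It was called lower (-1.84), as it was in GK hippocampus (-2.12) and cortex (-2.30). Oligodendrocyte markers summed to 324 to 382 in GK and 386 to 409.5 in control striatum, with the myelin gene Mobp called lower (-1.14). Microglia markers summed to 30.4 to 44.6 in GK and 25.1 to 26.4 in control striatum, endothelial markers (5 of 6) to 38.4 to 45.1 and 30.9 to 32.6, and blood markers to 3.26 to 6.34 and 1.56 to 2.00. Control pool 2 had a choroid plexus sum of 6.30 against 2.19 and 2.38 in the other control pools. The part of these in the differences was not tested.

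In STZ rats no member was called against the controls in any region, where 0.665%, 0.948% and 0.846% of probes were called in hippocampus, prefrontal cortex and striatum. None passed the test without the fold limit either (2.43%, 2.47% and 3.31% of probes). STZ and control pools did not overlap for 8, 3 and 1 of the 13 probes, against 30.3%, 26.7% and 22.9% of all probes tested. At an unadjusted p under 0.05, limma gave 6, 1 and 3 of the 13 probes in these regions, and the methods' t-test 5, 1 and 0. These comparisons used the same control pools as those of the GK rats.

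In hippocampus the differences were above 0 for 11 of 13 probes, with a median of 0.35 against 0.02 over all probes. Egr1 read 3.04, 3.43 and 3.10 in the STZ pools, all above the control pools of 2.72, 2.74 and 2.42 (0.56, SE 0.17, adjusted p = 0.0808). Fos read -0.78, -0.31 and -0.45, also above every control pool (0.51, SE 0.16, adjusted p = 0.106). Egr2, Egr4 and Nr4a1 gave 0.79, 0.50 and 0.35 (adjusted p = 0.216, 0.211 and 0.247). The STZ levels of Arc, 3.63, 4.30 and 3.88, lay on both sides of the controls (difference -0.00, 95% interval -0.32 to 0.32). STZ and control hippocampus shared no slide. Their choroid plexus sums were 3.56 to 4.05 in STZ pools and 2.98, 3.26 and 126 in controls, whose part in these differences was not tested.

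In cortex the largest difference was that of A_43_P11932 of Nr4a3, which read -0.50, -0.04 and -1.56 in STZ pools against 0.18, -0.04 and 0.27 (-0.84, SE 0.30, adjusted p = 0.148). The STZ pools disagreed, with pool 2 within the range of the controls and pool 3 far below them. Without STZ pool 2 the difference was -1.17 (adjusted p = 0.0409) and the probe was called. Without STZ pool 1 or 3 it was not called. Arc read 5.13, 5.14 and 5.11 in STZ cortex, just under the control pools of 5.31, 5.51 and 5.28 (-0.24, 95% interval -0.56 to 0.08, adjusted p = 0.505). The striatal marker sum was 9.90 to 10.9 in STZ cortex against 18.5, 8.62 and 25.7 in controls, and 3 of its 9 genes were called lower. Oligodendrocyte markers summed to 107 to 114 and 133 to 159, and blood markers to 1.19 to 1.34 and 1.84 to 2.54. The part of these in the cortical differences was not tested. In striatum Egr1 read 3.99, 3.98 and 3.74, below every control pool (-0.51, SE 0.17, adjusted p = 0.0991), and Nr4a1 gave -0.36 (adjusted p = 0.191). STZ and control striatum shared no slide. STZ and control cortex pools of equal number shared slides, a pairing that the tests did not take into account. The second Jund probe was above the controls by 0.76, 0.45 and 0.64 in hippocampus, cortex and striatum (adjusted p = 0.175, 0.492 and 0.223), and the lead probe by 0.09, 0.13 and 0.09.

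**Figure D3:**
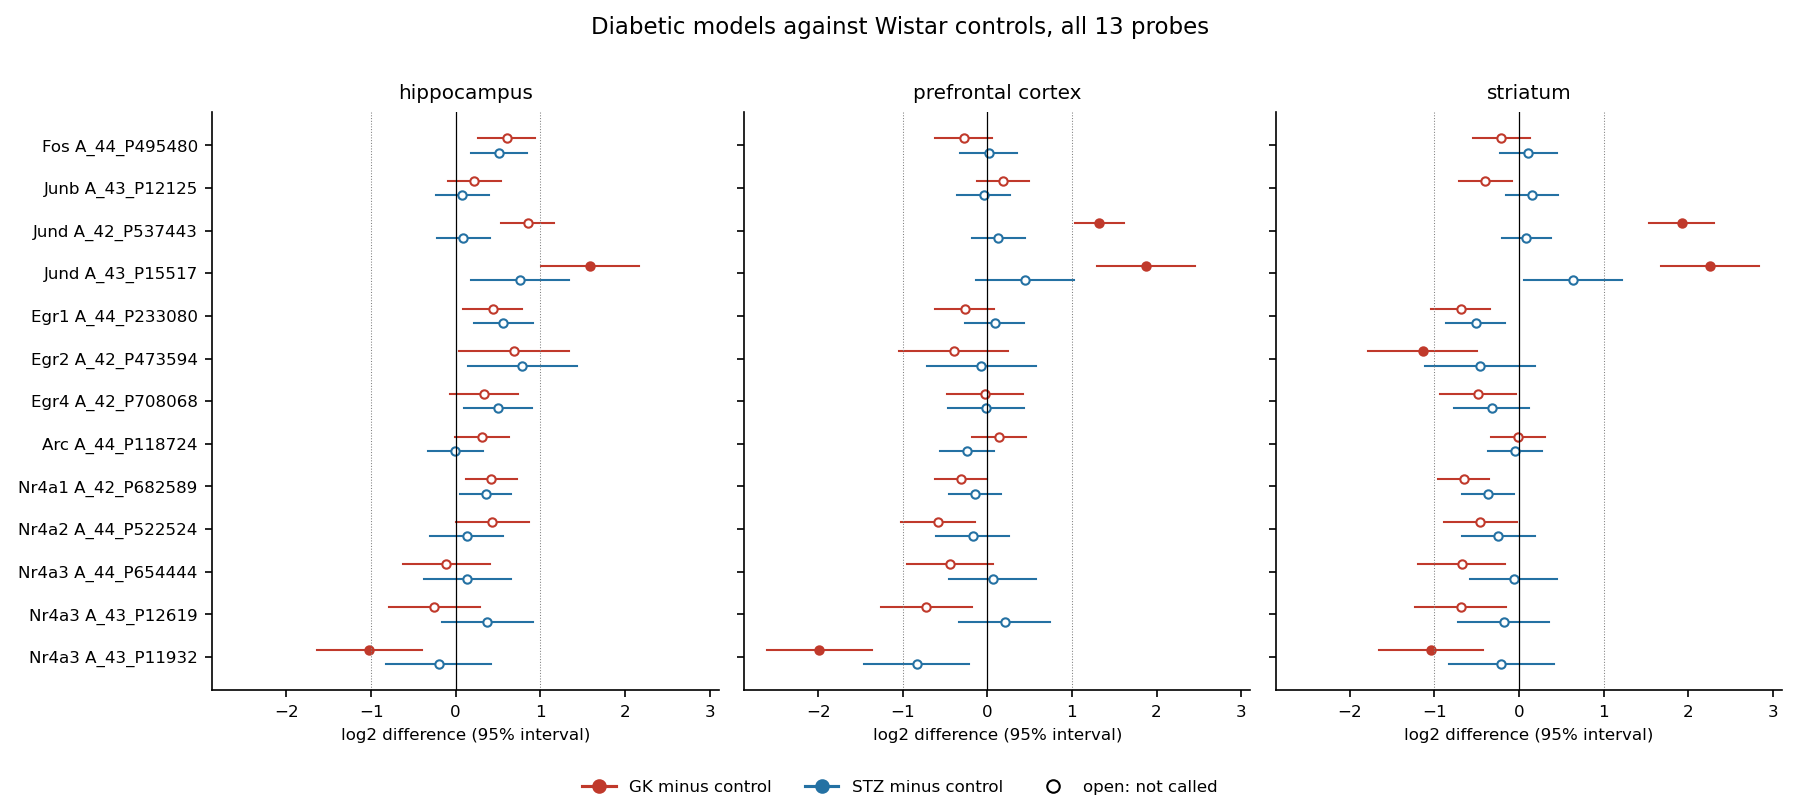
Log2 difference of GK and of STZ rats from the controls for each of the 13 probes in the 3 regions, with 95% confidence intervals from limma (3 pools a group before outlier spots are left out) and called probes filled. Both Jund probes lie to the right of 0 in GK rats in every region, reaching 2.26 in striatum, and no STZ value is filled.

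Set directly against each other, the models differed in Jund, Nr4a3 and Junb. In hippocampus no member was called (2.79% of 30670 probes), and the lead probe of Jund passed as higher in GK rats by 0.76 (adjusted p = 0.00659; 8.85% of probes passed). Without GK pool 2 it did not pass (adjusted p = 0.0588). GK and STZ hippocampus shared no slide, and the slide as a block could not correct this difference. At an unadjusted p under 0.05 there were 4 probes by limma and 4 by the methods' t-test. In cortex 3 were called (3.55% of 30902 probes), the Jund probes as higher in GK rats by 1.19 and 1.43 (adjusted p = 9.04e-05 and 0.00145) and A_43_P11932 of Nr4a3 as lower by -1.15 (adjusted p = 0.0116). The second Nr4a3 probe was lower by -0.93 (adjusted p = 0.0181; 15.5% of probes passed). GK and STZ cortex shared no slide either, and the slide as a block could not correct these differences. The third Nr4a3 probe no longer passed without STZ pool 1 or 2 (adjusted p up to 0.0778), nor the second without GK pool 2 or 3 or STZ pool 3 (adjusted p up to 0.093). In striatum the Jund probes were called, at 1.84 and 1.62 (adjusted p = 1.86e-05 and 0.000526; 4.79% of 30605 probes were called), the first of them with a single GK spot. With the marked spots kept the lead probe gave 1.20 (adjusted p = 0.000226).

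Markers of other cell types also differed between the models. Choroid plexus markers summed to 159, 21.3 and 110 in GK and 3.56 to 4.05 in STZ hippocampus, and 5 of the 9 were called higher (median 2.61). Blood markers summed to 2.55 to 4.68 in GK and 1.19 to 1.34 in STZ cortex, and to 3.26 to 6.34 and 1.29 to 1.81 in striatum, both genes being called in each region (medians 1.57 and 1.49). Their part in the differences between the models was not tested.

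Junb was the other member that separated the models in striatum, with -0.46, -0.34 and -0.56 in GK pools and -0.03, 0.17 and 0.16 in STZ pools. The pools did not overlap and the difference passed without reaching 2-fold (-0.55, SE 0.15, adjusted p = 0.0194), where 15.5% of probes passed. It did not pass without STZ pool 2 or 3 (adjusted p up to 0.0772). GK and STZ striatum shared no slide, so that model and slide cannot be told apart there. The slide as a block could not correct the Junb and Jund differences between them.

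Whether a model moved a member differently in 2 regions was tested with the interaction term. The GK difference was more positive in hippocampus than in striatum for Egr1 by 1.13 (SE 0.24, adjusted p = 0.0324) and for Nr4a1 by 1.08 (SE 0.21, adjusted p = 0.0257), and these 2 probes were called, where 0.351% of the 31604 probes tested were. Egr2 gave the largest such value, 1.83 (SE 0.44, adjusted p = 0.0526), and the lead probe of Jund gave -1.07 over its single unmarked GK striatum spot (adjusted p = 0.0582), but -0.44 with the marked spots kept (adjusted p = 0.408). For STZ rats Egr1 was called in the same comparison, at 1.08 (SE 0.24, adjusted p = 0.0273; 0.82% of 31599 probes), and Nr4a1 gave 0.72 (adjusted p = 0.0769). Both models use the same control pools, so the Egr1 values are not independent of each other.

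These 3 values were close to the limit of the test. Each of 18 pools was left out in turn, which ended the call for Egr1 in GK rats in 9 cases (adjusted p up to 0.102), for Nr4a1 in GK rats in 5 (up to 0.0803) and for Egr1 in STZ rats in 6 (up to 0.0923). The 18 included cortical pools, which take no part in these differences. Every lost call came from leaving out a hippocampal or striatal pool. Control striatum pool 2 was among the pools that ended the call each time, and without that pool the values were 0.92, 0.89 and 0.87 (adjusted p = 0.0782, 0.0526 and 0.0551). With the replicate number as a block Egr1 did not pass either (adjusted p = 0.0555 and 0.0519), and Egr2 was called in its place at 1.83 in GK and 1.25 in STZ rats (adjusted p = 0.00559 and 0.033). With the slide as a block the 2 GK values did not pass (adjusted p = 0.416 and 0.493). The STZ value could not be corrected for the slide in this way. No member was called for hippocampus minus cortex or cortex minus striatum. In GK rats 0.171% and 0.129% of probes were called in those comparisons, and limma gave 7 and 3 member probes at an unadjusted p under 0.05. In STZ rats no probe at all was called (0% in both), and limma gave 2 and 1 member probes at an unadjusted p under 0.05.

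The probes of one gene could be compared within each array, since both are scaled by the same percentile. For Jund the lead probe minus the second, with marked spots kept, was 4.62 to 4.72 in GK hippocampus and 5.28 to 5.53 in control hippocampus. In cortex it was 4.62 to 4.70 against 5.08 to 5.27, and in striatum 4.56 to 4.73 against 5.03 to 6.59. The GK value was thus below the control value in each region without overlap, with mean differences of -0.70, -0.51 and -0.93 log2 units, as the second probe stood further above its controls than the lead probe did. An exact two-sided permutation test gave p = 0.1 for each, the smallest p that 3 against 3 pools allow. In STZ rats the same quantity differed from the controls by -0.50 in hippocampus and -0.29 in cortex without overlap (exact p = 0.1), and by -0.51 in striatum with overlap (exact p = 0.5). Control striatum pool 2 stood at 6.59 and the other control pools of that region at 5.03 and 5.16. Without pool 2 the striatal difference was -0.43 in GK rats, still with no overlap, and -0.01 in STZ rats.

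**Figure D4:**
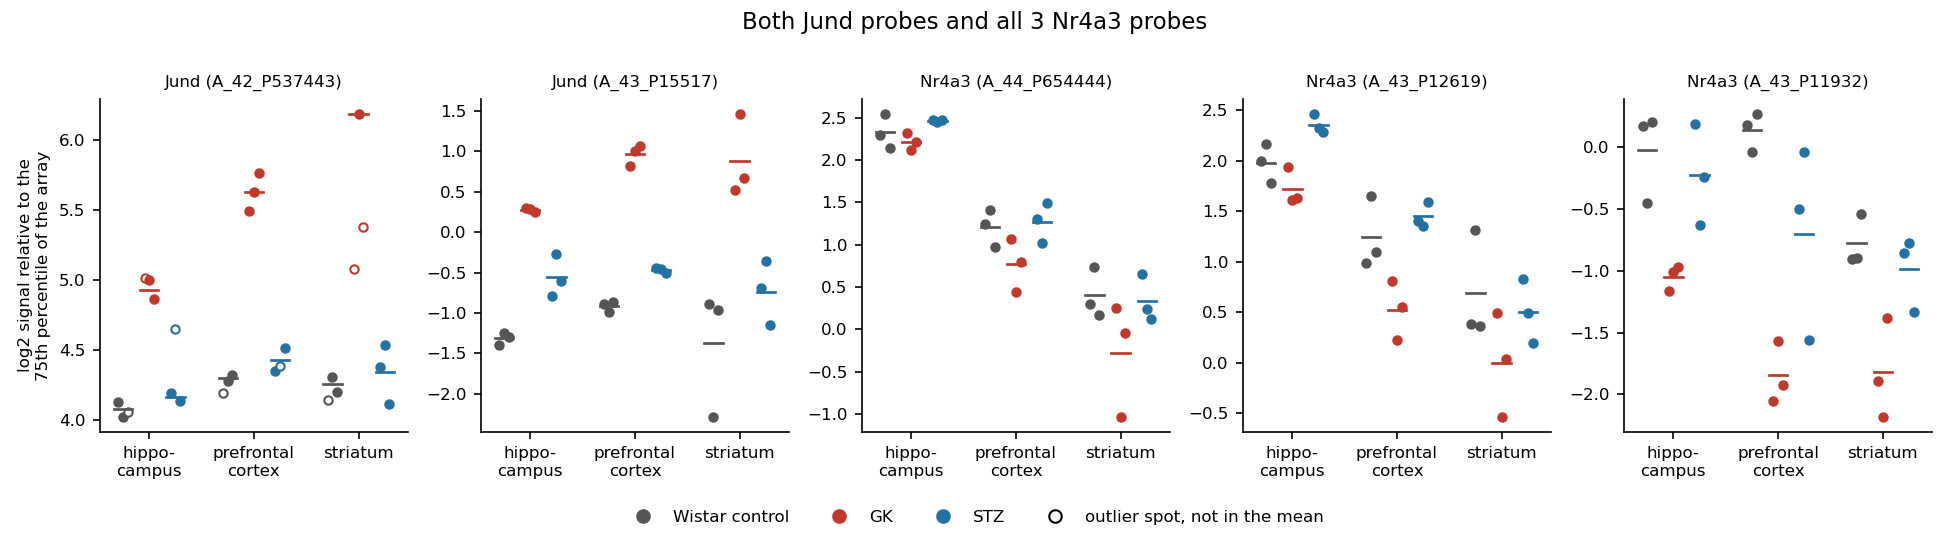
Log2 level of the 2 Jund probes and the 3 Nr4a3 probes in every pool of the 9 groups. The GK pools lie above the controls in both Jund probes, whereas for Nr4a3 the third probe (A_43_P11932) drops in GK rats, to -2.05 in cortex, while the first lies at 1.06, 0.44 and 0.80 there.

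For Nr4a3 the third probe gave larger GK differences than the others in hippocampus and cortex. In GK hippocampus the lead probe (2.32, 2.11 and 2.21) and the second probe (1.94, 1.61 and 1.63) were within 0.26 of the controls on average (-0.11, adjusted p = 0.911, and -0.26, adjusted p = 0.748), while the third read -1.17, -1.01 and -0.97 against 0.17, -0.45 and 0.20 (-1.02, SE 0.30, adjusted p = 0.0495). This last value no longer passed with the slide as a block (-1.04, adjusted p = 0.149), within slide 2 (-1.35, adjusted p = 0.309), with normexp (-0.95, adjusted p = 0.145), with the replicate number as a block (adjusted p = 0.0671), or without any one of 5 of the 6 pools (adjusted p up to 0.191). The lead minus the third probe was 3.12 to 3.48 in GK hippocampus against 1.94 to 2.99 in controls, and 2.01 to 3.12 against 0.71 to 1.45 in cortex (exact p = 0.1 in both). In striatum it was 1.15 to 2.14 against 0.71 to 1.63 with overlap (exact p = 0.5). The second minus the third probe was 2.60 to 3.10 against 1.58 to 2.61 in hippocampus with overlap (exact p = 0.2), 1.79 to 2.86 against 0.80 to 1.69 in cortex without overlap (exact p = 0.1), and overlapped in striatum (exact p = 0.5). In cortex and striatum the lead and second probes were also below the controls in GK rats, by -0.44 and -0.72 in cortex (adjusted p = 0.318 and 0.0917) and by -0.68 and -0.69 in striatum (adjusted p = 0.072 and 0.082), without passing. Lower Nr4a3 in GK rats than in controls thus passed the test in 1 of its 3 probes, A_43_P11932, whose transcript record was not found in RefSeq.

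Pools of one group also varied together. After the group means were removed, Egr1 correlated over the 27 arrays with Nr4a1 (r = 0.86), Egr4 (r = 0.81) and Egr2 (r = 0.71), and Egr4 with Nr4a1 (r = 0.78). The lead and second probes of Nr4a3 gave r = 0.88 with each other but -0.17 and -0.15 with the third probe, and the Jund probes gave r = 0.51. Egr2 ran with the second and lead probes of Nr4a3 (r = 0.87 and 0.74), Fos with the second probe of Jund (r = 0.74) and Arc with its lead probe (r = 0.67). These are descriptions over arrays that share slides and scaling. Marked outlier spots were kept in them and in the averages below, 8 in the lead probe of Jund and 3 in Egr4. Averaged over the lead probes, the deviation (in SD units of each gene) was highest in STZ hippocampus pool 2 (1.19), control striatum pool 2 (1.11) and GK hippocampus pool 1 (0.94), and lowest in STZ hippocampus pool 1 (-0.85). Against the average of the other 9 lead probes, Egr1 (r = 0.87), Egr4 (r = 0.75), Nr4a1 (r = 0.72) and Arc (r = 0.64) ran closest, and Nr4a3 (r = 0.03) and Fos (r = -0.01) least.

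**Figure D5:**
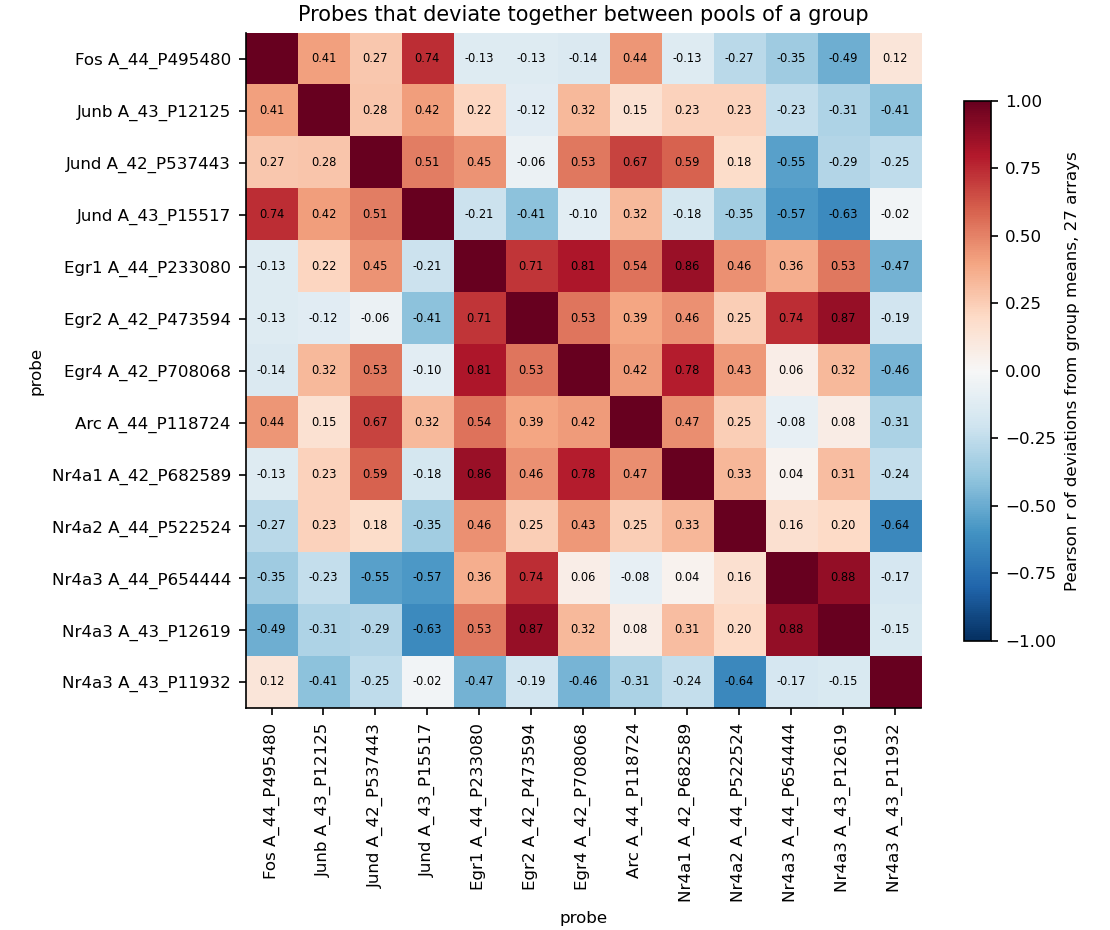
Pearson correlation between the 13 probes of their deviations from the group means, over 27 arrays, with outlier spots kept. Egr1, Egr4 and Nr4a1 form a block with r from 0.78 to 0.86, and the third Nr4a3 probe (A_43_P11932) is near or below 0 with the other probes of its gene.

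Among 16069 other named probes well above background on every array, the 10 whose deviations ran closest to the average of all lead probes were LOC682888, Rnf138, LOC619573, Pnrc1, RGD1562776, LOC287010, LOC502174, RGD1310230, RGD1564550 and Cpsf5, with r from 0.84 down to 0.81. Most of these names are locus identifiers of the array's design, and what these loci encode was not looked up.

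Other genes known to follow neuronal activity were read from a list of 60 names, of which 54 had a probe. In control rats 25 of the 53 tested passed between cortex and hippocampus, 23 higher and 2 lower in cortex, with a median of 0.37 against 0.03 over all probes (15.8% of all probes passed). Dusp1, a phosphatase that ends MAP kinase signals, was higher in cortex by 2.07, the zinc finger factors Klf6 and Klf4 by 1.23 and 1.22, and secretogranin II (Scg2) was lower by -1.29. In striatum 16 of 52 were higher and 10 lower than in hippocampus (29.4% of all probes passed). Bdnf, a growth factor that cortical neurons deliver to the striatum but striatal neurons hardly make, was lower by -2.58 and Nrn1, which promotes neurite growth, by -2.89, while Rgs2, a brake on G protein signals, was higher by 2.20 and Dusp1 by 1.46.

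In GK rats few genes of this list passed in hippocampus and cortex, and more in striatum. In hippocampus 1 of 51 passed (5.12% of all probes), Spry2, a brake on growth factor signalling, which was lower by -0.77 (adjusted p = 0.00827). Rgs2 followed at 0.60 (adjusted p = 0.0524). In cortex 4 of 53 passed (8.59% of all probes), 2 in each direction, among them Klf6 (-0.57, adjusted p = 0.00208) and Nptx2, a secreted organiser of AMPA receptors (0.51, adjusted p = 0.0179). In striatum 13 of 52 passed (13.8% of all probes), 9 lower and 4 higher, of which Gem, a small GTPase that limits calcium channels, was called (1.20, adjusted p = 0.00585). Gem was dim there, at -4.36, -3.81 and -4.20 in GK pools against -4.91, -5.65 and -5.41 in controls. Only 2 of the 3 control spots were well above background. The median over the list was 0.05, -0.09 and -0.15 in the 3 regions, against -0.05, -0.01 and 0.01 over all probes. In STZ rats 1 of 51, 0 of 53 and 1 of 52 passed, where 2.43%, 2.47% and 3.31% of all probes did: Dusp6 in hippocampus (0.51, adjusted p = 0.014), followed by Nptx2 (-0.45, adjusted p = 0.0817), and Klf4 in striatum (-0.56, adjusted p = 0.0428), followed by Klf10 (-0.62, adjusted p = 0.0674). In STZ cortex Ier2 (1.13, adjusted p = 0.174) and Gem (0.73, adjusted p = 0.179) had the smallest p by limma.

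Signalling genes and factors that act on these genes or with them were taken from a list of 44 names, 38 with a probe, and those named here were named because they were called, after their values were seen. In GK rats 4, 7 and 8 of the 38 passed in hippocampus, cortex and striatum (5.12%, 8.59% and 13.8% of all probes), and 2, 2 and 1 were called, all lower (1.93%, 2.5% and 3.08% of all probes). Nab1, a corepressor that binds Egr factors, was called in each region. It read -5.28, -5.24 and -5.17 in GK hippocampus against -3.82, -3.14 and -3.47 in controls (-1.75, SE 0.21, adjusted p = 9.75e-06). In cortex it read -5.12, -4.62 and -5.25 against -3.25, -3.58 and -3.32 (-1.61, adjusted p = 2.48e-05). In striatum it read -5.32, -6.09 and -5.51 against -3.96, -4.48 and -3.83 (-1.55, adjusted p = 4.02e-05), and only 1 of the 3 GK spots was well above background there. No GK pool overlapped with a control pool, and STZ rats differed by 0.12, -0.21 and 0.32 (adjusted p = 0.881, 0.737 and 0.424).

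Hdac4, a histone deacetylase that leaves the nucleus when neurons fire, was called lower in GK hippocampus (-1.03, adjusted p = 0.000203) and cortex (-1.03, adjusted p = 0.000164) and passed in striatum (-0.80, adjusted p = 0.00168). In STZ rats 3, 2 and 2 of 38 passed (2.43%, 2.47% and 3.31% of all probes), and 0.665%, 0.948% and 0.846% of all probes were called. Camk2a, the alpha subunit of the calcium/calmodulin kinase of the postsynaptic density, was called higher in STZ hippocampus, with 2.00, 2.27 and 2.14 against 0.58, 1.10 and 0.75 (1.33, SE 0.29, adjusted p = 0.0176). Camkk1, a kinase that activates CaM kinases, was called higher in STZ cortex (1.10, adjusted p = 0.0121), where 1 of 3 STZ spots was kept.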

How the data were processed

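RNA of 27 pools was labelled and hybridised to one-colour Agilent rat arrays, and the deposited intensity values are processed signals that the authors extracted with Agilent Feature Extraction 9.1, already background-subtracted. The deposited value table held the same intensity values. From these, log2 minus each array's 75th percentile was computed over non-control probes, without outlier spots, and tested with limma 3.58.1 in R 4.3.3 (9 groups, 18 residual degrees of freedom). Probes entered the test of a region after clearing background on 2 or more of the 3 arrays in any group there. P-values were adjusted by Benjamini-Hochberg over all probes of a comparison. The authors' own test, Welch's with the same adjustment and a 2-fold limit, was run as an alternative and is called the methods' t-test, and normalization to the control median was replaced by the percentile so that regions could be compared. Where an alternative left 1 pool in a group, that pool was assumed to vary like the others. The number of arrays limits the precision, as no read depth exists. Every member probe is named, the lead probe of a gene has the highest mean level, and other listed genes are named by their p-value, up to 4 called or else 2. Members and lists were chosen with earlier results of these data known. Alternatives covered scaling, background, filters, samples in the fit, slide, replicate number and each pool left out, and keeping outlier spots was added after seeing the data. The slide as a block could correct only differences between groups that both lay on slides 1 to 3 or both on slides 4 to 7. Pools with equal numbers deviated together in every pair (r = 0.49, 0.47 and 0.71) only between STZ and control cortex, where they also shared slides. The main tests used the numbers as pairs in no comparison, STZ against control cortex included. The replicate number as a block was run only as an alternative. Probe sequences are those on the array and promoters are from RefSeq (GRCr8). The statistical steps were tested on simulated data.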

Additional observations from a re-analysis of the deposited data

Results flagged for a closer look

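In 3 cases the same model gave a different response in 2 regions, by a test of the difference itself in limma. The GK difference of Egr1 was more positive in hippocampus than in striatum by 1.13 log2 units (adjusted p = 0.0324), and that of Nr4a1 by 1.08 (adjusted p = 0.0257). The STZ difference of Egr1 was more positive in hippocampus than in striatum by 1.08 (adjusted p = 0.0273). All 3 draw on the same hippocampal and striatal control pools. When each of 18 pools was left out in turn, the call was lost in 9, 5 and 6 cases, with adjusted p up to 0.102, 0.0803 and 0.0923. The 18 included cortical pools, which take no part in these differences. Every loss came from leaving out a hippocampal or striatal pool, control striatum pool 2 among them each time. With the slide as a block the 2 GK values were 0.97 and 0.79 (adjusted p = 0.416 and 0.493). The STZ value could not be corrected for the slide in this way.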

How the results depend on the processing

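Counts of called member probes were recomputed under each alternative, and no probe reversed. The recomputed count stayed within 1.5 times the reported one 242 times and moved further 65 times. GK against control in hippocampus (2 called) gave 1 with scaling to the 50th percentile, normexp, no filter on dim probes, the replicate block or the methods' t-test, 0 within slide 2 and 4 without the fold limit. In cortex (3 called) the methods' t-test gave 0. In striatum (4 called) the count was 2 with normexp, the slide as a block or only the arrays of the region, 0 with only the groups compared or the methods' t-test, and 1 within slide 4. GK against STZ (0, 3 and 2 called) gave 1 in hippocampus without the fold limit, 0 in cortex and striatum by the methods' t-test, and 1 in striatum with only the arrays of the region. Between control regions, the methods' t-test gave 5 of 9 (cortex and hippocampus), 1 of 7 (striatum and hippocampus) and 0 of 1 (striatum and cortex), the last being 4 without the fold limit and 3 within slide 5. Regional differences of the GK response (2 called) gave 1 with quantile normalization or only the arrays of the regions, and 0 with normexp, the slide as a block or only the groups compared. Those of the STZ response (1 called) gave 0 under each of these and with the 50th percentile, although the slide as a block could not correct them. Leaving out each pool in turn gave 1 to 2, 3 to 3 and 1 to 4 calls for GK, 0 to 0, 0 to 1 and 0 to 0 for STZ and 0 to 0, 2 to 4 and 1 to 3 for GK against STZ, in hippocampus, cortex and striatum. It gave 7 to 9, 7 to 8 and 1 to 2 between the control regions in the order above, 0 to 5 for regional GK differences and 0 to 2 for STZ. The replicate block changed no other count by over 1.5 times and left 0 calls for STZ in cortex, where the numbers pair, but it changed which members passed: Fos and A_43_P11932 of Nr4a3 were lost in GK hippocampus (adjusted p = 0.0919 and 0.0671), Nr4a2 between control striatum and hippocampus (0.0516), and Egr1 in the regional GK and STZ differences (0.0555 and 0.0519), where Egr2 was gained (0.00559 and 0.033).

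Normexp shifted the median of all probes by over 0.1, to -0.27 for GK and -0.28 for STZ striatum, 0.22 for STZ cortex, -0.23 for GK against STZ cortex, and 0.39 and 0.38 for control striatum against hippocampus and cortex. The groups with the highest and the lowest mean were the same for 9, 7 and 7 of the 10 lead probes with the 50th percentile, quantile normalization and normexp. The cause of these changes was not tested. All 13 probes were well above background on every array. With normexp, 3 member probes nevertheless lost their pass in GK against control hippocampus and 4 in GK against control striatum, among other comparisons.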
